A study of Mus musculus with 3 samples.

Results

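Rspo3, Wnt2, Wnt9b, Bmp2, Hgf, Dll4 and Jag1 are secreted or membrane-bound ligands by which endothelial and mesenchymal cells of the liver signal to their neighbours. They were taken by symbol from the deposited matrices, where each matched 1 row, and make up 7 of the 55357 genes listed. Their unique molecular identifiers (UMIs, 1 per captured RNA molecule) were counted per cell class in 3 single-cell libraries of mouse liver.

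Each library pooled cells of 2 male wild-type C57BL/6J mice, 6 mice in all, that were 8 weeks old when the experiment began. The control mice were untreated. The HFD mice were fed for 4 months on a diet that drew 60% of its calories from fat. The CCl4 mice stayed on chow for 3 months and were then injected intraperitoneally with 0.1 mL of 10% carbon tetrachloride, a hepatotoxin, 2 times a week for 4 weeks. All livers were perfused with collagenase, and hepatocytes and non-parenchymal cells were mixed 1:1 before droplet capture with the 10X Genomics 3′ chemistry. No condition was replicated, so samples could not be tested against each other, and a ratio between libraries compares those libraries. Intervals are 95% and cover counting error only.

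Wnt ligands and R-spondins made by endothelial cells around the central vein are known to maintain the pericentral gene programme of hepatocytes. R-spondins act through Lgr receptors, which keep Frizzled receptors at the cell surface by restraining the ubiquitin ligases Rnf43 and Znrf3. Bmp2 from sinusoidal endothelial cells signals to hepatocytes, where it takes part in the control of hepcidin and so of iron. Hgf, a growth factor for hepatocytes that binds the receptor Met, is classically a product of stellate and endothelial cells. Dll4 and Jag1 are membrane-bound ligands of Notch receptors: Dll4 is known from arterial endothelium and plasmacytoid dendritic cells, and Jag1 from the portal mesenchyme that patterns bile ducts.

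In the GENCODE M21 annotation of GRCm38, Rspo3 (ENSMUSG00000019880) spans chr10:29452416-29535867 on the minus strand, Wnt2 (ENSMUSG00000010797) chr6:17988940-18030585 on the minus strand and Wnt9b (ENSMUSG00000018486) chr11:103727364-103749821 on the minus strand. Bmp2 (ENSMUSG00000027358) spans chr2:133552159-133562885, Hgf (ENSMUSG00000028864) chr5:16553495-16620152 and Dll4 (ENSMUSG00000027314) chr2:119325784-119335962, all on the plus strand. Jag1 (ENSMUSG00000027276) lies at chr2:137081456-137116644 on the minus strand. Hgf shares its strand with the overlapping genes Gm43489, with 82 UMIs over the libraries, and Gm42975, with 20, so reads in the shared stretches could have been split between them. Rspo3 overlaps Gm20276 and Gm48159, with 4 and 7 UMIs, and Dll4 lies opposite Gm14207, with 51.

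The 250 bases before the transcription start are shown for Wnt9b, the member with the largest share of its UMIs in endothelial cells, and for Hgf and Dll4. Like Jag1, these 2 were at least 2-fold lower in endothelial cells of both treated libraries. They are RefSeq sequences on GRCm38.p6, 5′ to 3′ on the strand of the gene. Capitals mark each match to GATAA, the core read by GATA factors, or to GGAAG, the core of many ETS factor sites. Both strands were searched (TTATC and CTTCC on the printed strand), and no matches overlapped in the windows shown. The windows are chr11:103749822-103750071 (minus strand) for Wnt9b, chr5:16553245-16553494 (plus strand) for Hgf and chr2:119325534-119325783 (plus strand) for Dll4.
Wnt9b: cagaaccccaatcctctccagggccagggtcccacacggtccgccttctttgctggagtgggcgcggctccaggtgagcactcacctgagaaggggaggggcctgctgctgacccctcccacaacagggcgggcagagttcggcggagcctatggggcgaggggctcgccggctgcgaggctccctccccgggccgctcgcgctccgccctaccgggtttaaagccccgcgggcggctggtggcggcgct
Hgf: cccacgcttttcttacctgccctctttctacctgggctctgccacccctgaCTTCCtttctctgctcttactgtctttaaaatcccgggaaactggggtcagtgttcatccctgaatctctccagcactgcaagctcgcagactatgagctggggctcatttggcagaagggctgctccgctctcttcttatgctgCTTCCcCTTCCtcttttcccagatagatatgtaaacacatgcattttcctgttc
Dll4: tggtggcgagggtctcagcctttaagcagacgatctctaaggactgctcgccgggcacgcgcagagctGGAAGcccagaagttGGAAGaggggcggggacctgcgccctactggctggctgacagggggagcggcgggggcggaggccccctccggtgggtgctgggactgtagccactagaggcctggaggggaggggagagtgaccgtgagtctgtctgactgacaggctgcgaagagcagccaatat
The Hgf window held 3 matches to GGAAG, all on the minus strand, at 199 to 195, 54 to 50 and 48 to 44 bases before the start. The Dll4 window held 2 on the plus strand, 182 to 178 and 167 to 163 bases before the start, and the Wnt9b window held neither motif. GGAAG occurred in 64.1% and GATAA in 22.6% of 32851 promoter windows of the same length. A match describes letters and is no evidence of binding. RefSeq windows were matched for 5 of the 7 members, and Rspo3 and Bmp2 were not among them. Of the windows not shown, that of Jag1 held neither motif and that of Wnt2 held 2 matches to GATAA and 1 to GGAAG. A second Hgf window, which lay inside the gene, held 2 matches to GGAAG.

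The libraries held 11245, 12984 and 12761 barcodes in the order control, HFD and CCl4, which is kept throughout, with medians of 2939, 2336 and 2173 UMIs. Of these 36990 barcodes, 36945 were kept as cells, and 36 to 52 barcode sequences were shared by each pair of libraries. Clustering without the members gave endothelial cell-like cells (156, 334 and 166 cells, 1.39%, 2.57% and 1.30% of each library), fibroblast or stellate cell-like cells (23, 137 and 15), smooth muscle cell-like cells (53, 10 and 18), cholangiocyte-like cells (115, 164 and 202) and hepatocyte-like cells (4941, 6380 and 7113). Basophil-like (94, 32 and 14), plasmacytoid dendritic cell-like (195, 99 and 196) and T cell-like cells (1747, 2141 and 1998) are used below as well.

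The endothelial cell-like class was led by endothelial genes as a whole but differed in content between libraries. All 11 endothelial markers were detected in each library, at a summed level of 10190, 6945 and 2738 counts per 1000000 UMIs (CPM). The 10 hepatocyte markers, all detected in these cells, summed to 14250, 69080 and 113400 CPM. Hepatocyte markers followed the same order in T cell-like cells, at 24710, 82420 and 109700 CPM, and in cholangiocyte-like cells, at 15100, 53290 and 81790 CPM. Member levels in the HFD and CCl4 libraries were thus read from cells with fewer endothelial and more hepatocyte transcripts, and the part of this in the differences below was not tested except by the rescaled values given there. Against their name, 2 sub-clusters of the class, with 62 HFD and 82 CCl4 cells and no control cell, were led by hepatocyte genes such as Cyp2c37 and G6pc. They had endothelial markers at 1259 and 797.5 CPM and hepatocyte markers at 110900 and 131100 CPM. Library ratios and some class ratios are given with and without them. Levels of the class, shares of positive cells, the central and portal division and co-detection are given only with them. The sub-clusters numbered 8 and 9 below were also led in part by hepatocyte genes, with hepatocyte markers at 70790 and 94630 CPM, and were kept.

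The members were concentrated in few cells. Endothelial cell-like cells made up 1.78% of all cells but held 1252 of the 1380 Rspo3 UMIs (90.7%), 308 of 351 for Wnt2 (87.7%), 55 of 56 for Wnt9b (98.2%) and 1787 of 2146 for Bmp2 (83.3%). They held 81 of 135 UMIs of Dll4 (60.0%), with a further 33 (24.4%) in plasmacytoid dendritic cell-like cells. Hgf and Jag1 were shared out more widely. Of 584 Hgf UMIs, 195 (33.4%) lay in endothelial cell-like and 198 (33.9%) in basophil-like cells, the latter only 0.379% of all cells. Of the 195, 106 lay in an endothelial sub-cluster of 31 cells that had stellate genes such as Lrat and Reln among its leaders. Of the 198, 190 came from the control library, where basophil-like cells held 42.4% of the Hgf UMIs, against 2.94% in HFD and 14.7% in CCl4. Of 693 Jag1 UMIs, 249 (35.9%) lay in cholangiocyte-like, 132 (19.0%) in endothelial cell-like, 109 (15.7%) in hepatocyte-like and 101 (14.6%) in smooth muscle cell-like cells.

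**Figure D1:**
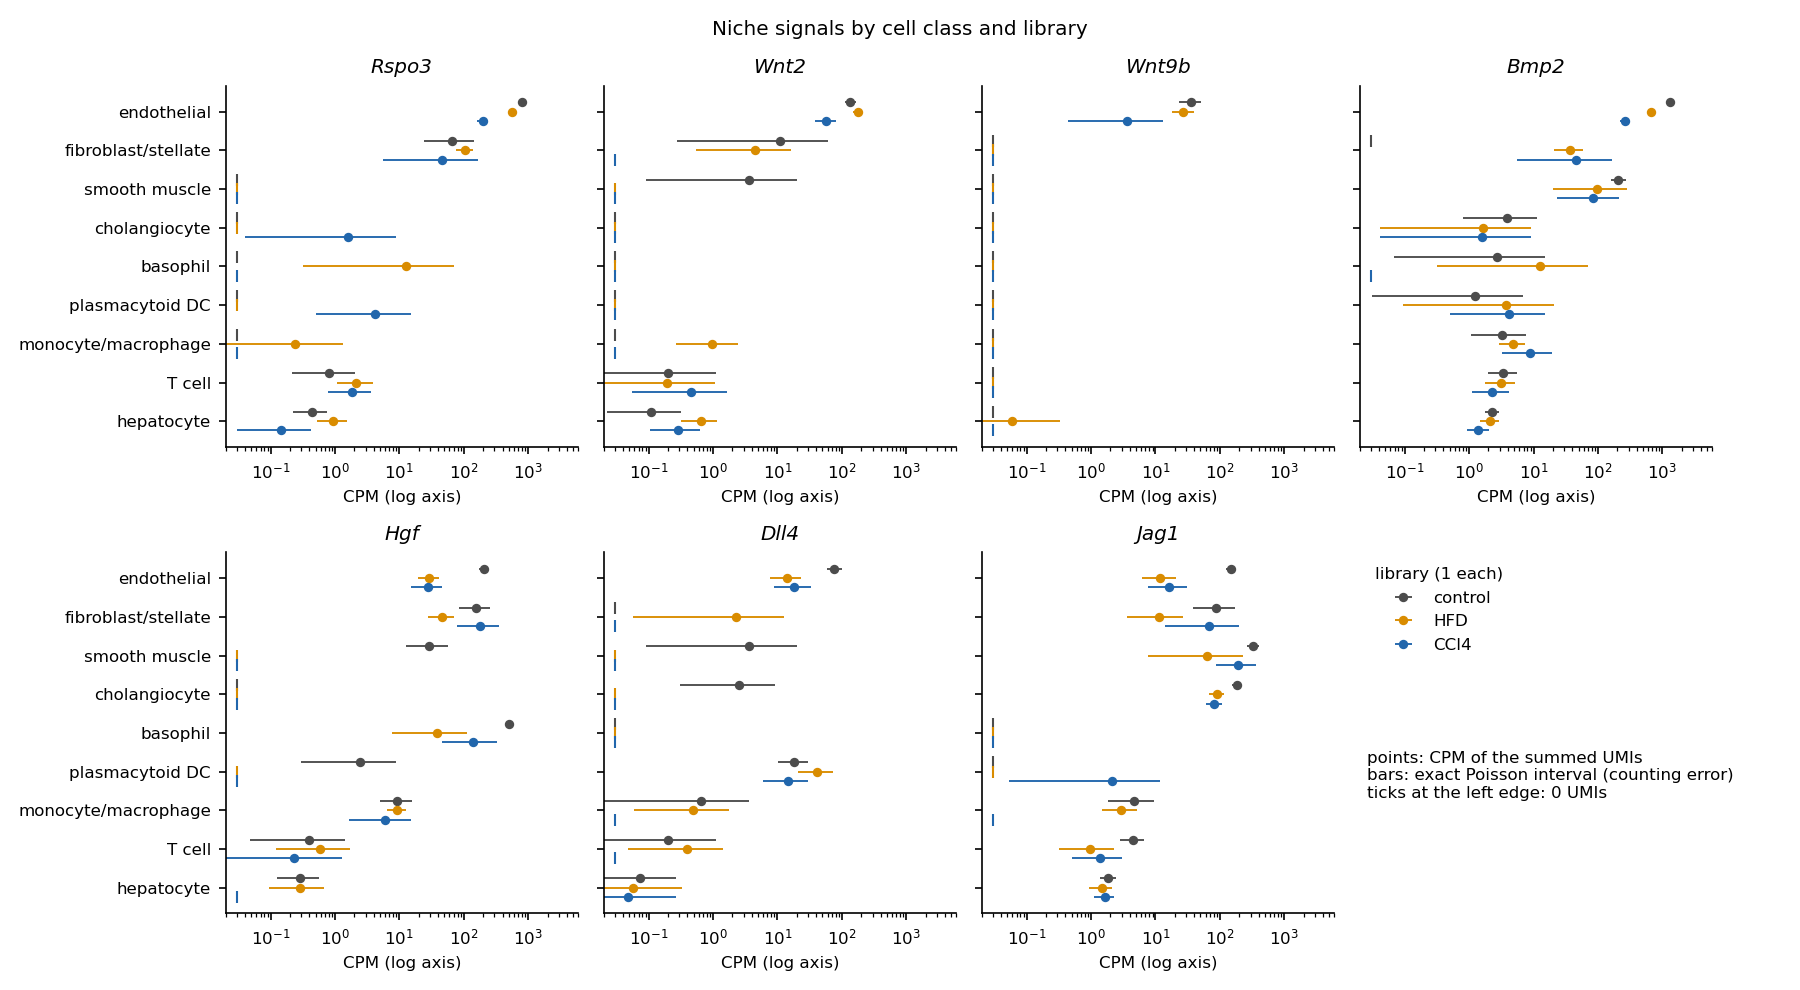
Level of each of the 7 members (CPM, log axis) by cell class in the control, HFD and CCl4 libraries, with points for summed UMIs, bars for the exact Poisson interval and marks at the left edge where no UMI was counted. Rspo3, Wnt2, Wnt9b and Bmp2 are highest in endothelial cell-like cells of every library, whereas control Hgf is highest in basophil-like cells at 508 CPM and control Jag1 in smooth muscle cell-like cells at 329 CPM.

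Endothelial enrichment was read against all genes. In the control library, all 7 members were at least 5-fold higher in endothelial cell-like than in all other cells, a fold passed by 11.0% of the 17603 genes with at least 10 UMIs. In the HFD library 6 of the 7 passed, with Jag1 below the fold at 3.8, against 8.05% of genes. In the CCl4 library all 6 members with enough UMIs passed, against 5.66% of genes. Wnt9b reached the minimum in control and HFD only through its endothelial counts, with 0 and 1 UMI elsewhere. So did Wnt2 and Dll4 in CCl4, each with 9 UMIs elsewhere. In fibroblast or stellate cell-like cells, 3 of 7 members (Rspo3, Hgf and Jag1), 2 of 7 (Rspo3 and Hgf) and 4 of 6 (Rspo3, Bmp2, Hgf and Jag1) were at least 5-fold higher than elsewhere, against 11.4%, 9.6% and 8.91% of genes. In CCl4 this rested on 15 cells, with 2 UMIs each of Rspo3 and Bmp2 and 3 of Jag1, and the interval of the Bmp2 ratio (0.893 to 27.1) held 1. These folds describe classes made by clustering and carry no test.

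Rspo3, the R-spondin that amplifies Wnt signals, reached 587, 557 and 108 UMIs in endothelial cell-like cells, or 792 CPM (729 to 859), 555.5 (510 to 604) and 198 (162 to 239). The control level was the highest and the CCl4 level the lowest, and the intervals did not overlap. A UMI of Rspo3 was seen in 35.3%, 29.9% and 18.1% of these cells, against 0.172%, 0.467% and 0.350% of T cell-like cells, which should lack it, with median depths of 3952, 2516 and 2704 UMIs in the former and 2380, 2211 and 2019 in the latter. With each cell thinned to 1000 UMIs, which left out no endothelial cell-like cell, the endothelial shares were 25.8%, 20.4% and 12.1%.

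Few cells carried most of this signal. In the control, 406 of the 587 UMIs lay in 28 cells of a sub-cluster that held 4 HFD cells and no CCl4 cell. Cells with at least 5 Rspo3 UMIs, 41 in the control, 47 in the HFD and 7 in the CCl4 library, held 95.2%, 84.0% and 49.1% of the endothelial Rspo3 UMIs, and the highest cell held 37, 23 and 12. Endothelial Rspo3 was 1486-fold (1004 to 2294), 222-fold (176 to 282) and 390-fold (233 to 694) above all other cells. Outside the endothelium, fibroblast or stellate cell-like cells held 6, 46 and 2 UMIs, at 65.6 CPM (24.1 to 143), 104 (76.2 to 139) and 45.4 (5.50 to 164). Smooth muscle cell-like cells held none in any library. Hepatocyte-like cells, the receivers of the signal, held 0.438, 0.932 and 0.144 CPM.

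Wnt2, a Wnt ligand of sinusoidal and central vein endothelium, was counted 101, 176 and 31 times in endothelial cell-like cells, at 136 CPM (111 to 166), 176 (151 to 203) and 56.8 (38.6 to 80.7). The HFD and control intervals overlapped, and the CCl4 value lay below both. It was seen in 39.1%, 36.2% and 14.5% of these cells (13.6%, 15.7% and 5.88% after thinning), against 0.0572%, 0.0467% and 0.100% of T cell-like cells. The endothelial level was 665-fold (347 to 1428), 248-fold (162 to 398) and 211-fold (98.3 to 505) that of all other cells.

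Wnt9b, the second endothelial Wnt of the central vein, was sparse. Its 26, 27 and 2 endothelial UMIs lay in 18, 17 and 2 cells and gave 35.1 CPM (22.9 to 51.4), 26.9 (17.8 to 39.2) and 3.67 (0.444 to 13.2). The shares of positive cells were 11.5%, 5.09% and 1.21%, and no T cell-like cell of any library held a Wnt9b UMI. In the control library no UMI fell outside the endothelial class, so its level there was at least 570-fold higher, taking 3 counts for the 0 and without the counting error of the 26, and the lower limit of the exact interval was 432. In the HFD library 1 UMI fell outside, for a ratio of 915 (151 to 37460).

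Bmp2 was counted 979, 665 and 143 times in endothelial cell-like cells, at 1321 CPM (1239 to 1406), 663 (614 to 716) and 262 (221 to 309), with no overlap between the libraries. It was seen in 81.4%, 64.7% and 44.6% of these cells (58.4%, 41.7% and 23.9% after thinning), against 0.859%, 0.654% and 0.500% of T cell-like cells. The 73 control cells with at least 5 UMIs held 88.4% of it, against 44.2% in 44 HFD cells and 8.39% in 2 CCl4 cells. The endothelial level was 343-fold (293 to 403), 217-fold (176 to 269) and 131-fold (97.3 to 178) that of all other cells. Smooth muscle cell-like cells followed, at 208 CPM (158 to 270) from 57 UMIs in the control library, but 35 of these lay in 1 cell and the level without it was 82.7. In the HFD and CCl4 libraries this class held 3 and 4 UMIs.

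Hgf had more than 1 source. In endothelial cell-like cells it was counted 151, 29 and 15 times, at 204 CPM (172 to 239), 28.9 (19.4 to 41.5) and 27.5 (15.4 to 45.4), so that the control lay above both treated libraries, whose intervals overlapped. Positive cells made up 31.4%, 5.99% and 7.23% (13.3%, 2.42% and 2.51% after thinning), against 0.114%, 0.140% and 0.0501% of T cell-like cells. In the control library 8 cells with at least 5 UMIs held 55.0% of the endothelial count. Fibroblast or stellate cell markers under the same barcodes summed to 2072, 651 and 240 CPM, in the same order as Hgf, and their part in the Hgf values was not tested.

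Basophil-like cells, which were led by the basophil protease gene Mcpt8, had the highest Hgf level of the control library. They held 190, 3 and 5 UMIs, at 508 CPM (438 to 585), 37.9 (7.82 to 111) and 141 (45.8 to 329). In the control, 62 of 94 basophil-like cells (66.0%) were positive, no cell held more than 13 UMIs, and the level without the highest cell was 476 CPM. Control Hgf in basophil-like cells was 96.8-fold (79.8 to 117) the level of all other cells, against 33.5-fold (27.3 to 40.8) for endothelial cell-like cells. Hepatocyte markers in basophil-like cells summed to 27880, 92890 and 99810 CPM. Fibroblast or stellate cell-like cells held 14, 20 and 8 Hgf UMIs, at 153 CPM (83.7 to 257), 45.3 (27.6 to 69.9) and 182 (78.4 to 358), and 10 of the 14 control and 7 of the 8 CCl4 UMIs lay in 1 cell each. Monocyte or macrophage-like cells held 14, 38 and 4 Hgf UMIs at only 9.23, 9.22 and 5.97 CPM. With 1497 cells in HFD they held the largest share of that library's Hgf, 38 of 102 UMIs (37.3%). Their HFD level was 4.44-fold (2.89 to 6.74) that of all other cells. In the control, cells of clusters left without a name held 44 of 448 Hgf UMIs (9.82%). Their level was 13.3 CPM, or 1.52-fold (1.08 to 2.07) that of all other cells.

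Dll4 was low in all classes. Endothelial cell-like cells held 57, 14 and 10 UMIs, at 76.9 CPM (58.3 to 99.6), 14.0 (7.63 to 23.4) and 18.3 (8.79 to 33.7), with the control above both treated libraries. Positive cells made up 22.4%, 4.19% and 5.42% (7.08%, 1.61% and 2.22% after thinning), against 0.0572%, 0.0934% and 0 of 1998 T cell-like cells, the last of which allows up to 0.150%. Plasmacytoid dendritic cell-like cells held 15, 11 and 7 UMIs, at 18.4 CPM (10.3 to 30.3), 41.3 (20.6 to 73.8) and 14.7 (5.89 to 30.2), with overlapping intervals. The control cells of that class came from another cluster than those of the treated libraries.

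Jag1 was the member with the widest spread over classes. In cholangiocyte-like cells, the lining cells of bile ducts, it was counted 144, 55 and 50 times, at 184 CPM (155 to 217), 90.4 (68.1 to 118) and 80.6 (59.8 to 106), and was seen in 62.6%, 22.6% and 19.3% of the cells. The control lay above both treated libraries. Smooth muscle cell-like cells held 90, 2 and 9 UMIs, at 329 CPM (264 to 404), 64.2 (7.77 to 232) and 189 (86.3 to 358), with 66.0% of the control cells positive. Among mesenchymal cells, 48 Jag1 UMIs lay in a sub-cluster of 25 control cells with no smooth muscle marker among its 10 leading genes. A further 10 lay in a sub-cluster of 2, 8 and 19 cells led by hepatocyte genes such as Hamp2, with hepatocyte markers at 75250 CPM.

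In endothelial cell-like cells Jag1 reached 111, 12 and 9 UMIs, at 150 CPM (123 to 180), 12.0 (6.18 to 20.9) and 16.5 (7.54 to 31.3). Positive cells made up 25.0%, 3.59% and 4.82%, against 1.14%, 0.234% and 0.30% of T cell-like cells, and after thinning the endothelial shares were 7.73%, 1.14% and 2.02%. One control cell held 34 of the 111 UMIs, and the level without it was 106 CPM. Jag1 was 44.2-fold (34.7 to 55.9) above all other cells in control smooth muscle cell-like cells, 28.8-fold (23.4 to 35.2) in cholangiocyte-like cells and 21.2-fold (16.9 to 26.3) in endothelial cell-like cells. In the HFD library the cholangiocyte-like level was 48.5-fold (33.2 to 70.7) and the endothelial level 3.8-fold (1.90 to 6.92) above the rest.

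In the order of control CPM over classes, endothelial cell-like cells thus came first for Rspo3, Wnt2, Wnt9b, Bmp2 and Dll4. Hgf ran from basophil-like to endothelial cell-like and fibroblast or stellate cell-like cells, and the intervals of the latter pair overlapped. Jag1 ran from smooth muscle cell-like to cholangiocyte-like and endothelial cell-like cells, again with overlap between the last pair. The place of endothelial cell-like cells for Hgf includes the sub-cluster with stellate genes, which held 106 Hgf UMIs over the libraries. In hepatocyte-like cells Bmp2 was at 2.30, 2.10 and 1.39 CPM, below its 3.42, 3.12 and 2.29 CPM in T cell-like cells. Jag1 was at 1.82, 1.46 and 1.63 CPM in hepatocyte-like and 4.42, 0.977 and 1.37 CPM in T cell-like cells, and Hgf was counted 8, 5 and 0 times in hepatocyte-like cells. These levels are of the size of the background seen in T cell-like cells and were not read as expression.

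Between libraries, all 7 members had lower CPM in CCl4 than in control endothelial cell-like cells, although Wnt2 was higher there when scaled to endothelial markers. The ratios were 0.25 (0.202 to 0.307) for Rspo3, 0.417 (0.269 to 0.629) for Wnt2, 0.104 (0.0120 to 0.417) for Wnt9b and 0.198 (0.165 to 0.237) for Bmp2. They were 0.135 (0.0737 to 0.230) for Hgf, 0.238 (0.108 to 0.471) for Dll4 and 0.110 (0.0491 to 0.217) for Jag1. All 7 were at least 2-fold lower, as were 38.1% of the 9948 genes compared, and 0 of 7 were at least 2-fold higher, against 12.9% of genes. Wnt9b and Jag1, with 2 and 9 CCl4 UMIs, reached the minimum of 10 UMIs only through the control library. The median ratio was 0.198 over the members, 0.634 over 9917 genes of the class and 0.267 (0.181 to 0.414 as the range) over the 11 endothelial markers.

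In HFD against the same control cells, Hgf, Dll4 and Jag1 were at least 2-fold lower, with ratios of 0.142 (0.0920 to 0.212), 0.182 (0.0934 to 0.330) and 0.0799 (0.0401 to 0.145). This was 3 of 7 members, against 19.0% of the 10779 genes compared, and 0 of 7 were at least 2-fold higher, against 12.2%. Bmp2 was at 0.502 (0.454 to 0.555), Rspo3 at 0.701 (0.623 to 0.789), Wnt9b at 0.768 (0.431 to 1.37) and Wnt2 at 1.29 (1.00 to 1.66). In the control, 406 of the 587 Rspo3 and 13 of the 26 Wnt9b UMIs lay in 28 cells of the sub-cluster led by Cyp1b1, Fmo2 and Vwf. That sub-cluster held 4 HFD cells and no CCl4 cell. The other 128 control cells had Rspo3 at 296 CPM, below the 555.5 of all HFD cells of the class, and Wnt9b at 21.3. The same 28 cells held 27 of the 111 control Jag1 UMIs. The other 128 had Jag1 at 137.5 CPM, against 12.0 in all HFD cells of the class. They included 1 cell of sub-cluster 3 with 34 Jag1 UMIs, and that sub-cluster held 11, 7 and 2 cells. Library ratios without the sub-cluster led by Cyp1b1, Fmo2 and Vwf were not computed. The median ratio was 0.502 over the members, 0.813 over 10746 genes and 0.697 (0.464 to 1.07 as the range) over the endothelial markers.

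Because the median of all genes was itself below 1, the ratios were also scaled in other ways. Scaling to UMIs other than those of mitochondrial and the 20 most abundant genes moved the median of all genes to 0.894 in HFD and 0.760 in CCl4, and all members kept their direction. Scaled to the endothelial markers instead, Rspo3 was at 1.03 (0.915 to 1.16) in HFD and 0.930 (0.750 to 1.14) in CCl4, and Wnt2 was higher than in the control, at 1.89 and 1.55 (1.00 to 2.34 in CCl4). Wnt9b was at 1.13 in HFD and 0.389 (0.0447 to 1.55) in CCl4. Bmp2 stayed at 0.737 and 0.738 under this scaling, and in CCl4 Dll4 was at 0.887 (0.404 to 1.75), Hgf at 0.502 and Jag1 at 0.410 (0.183 to 0.806). The scaled CCl4 intervals of Rspo3 and Dll4 thus held 1, and those of Bmp2, Hgf and Jag1 lay below it. The HFD values of Hgf, Dll4 and Jag1 were 0.208, 0.266 and 0.117 under the same scaling.

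Leaving out the 2 sub-clusters led by hepatocyte genes and lowest in endothelial markers, 0, 62 and 82 cells, gave CCl4 ratios of 0.525 for Rspo3, 0.855 for Wnt2, 0.237 for Wnt9b, 0.397 for Bmp2, 0.204 for Hgf, 0.379 for Dll4 and 0.195 for Jag1. The HFD ratios were then 0.831, 1.51, 0.939, 0.597, 0.162, 0.222 and 0.0815 in the same order. Hgf, Dll4 and Jag1 had the lowest HFD ratios of the 7 with all UMIs, without these sub-clusters and when scaled to endothelial markers. Sub-clusters 8 and 9, in part led by hepatocyte genes, stayed in when the 2 were left out. Leaving out instead 5 sub-clusters led by genes of myeloid, B, red blood, stellate or NK cells (59, 86 and 33 cells), but keeping those led by hepatocyte genes, gave Rspo3 ratios of 0.2955 in HFD and 0.115 in CCl4, and Wnt2 ratios of 0.9495 and 0.237, so that the HFD value of Wnt2 fell on the other side of 1.

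**Figure D2:**
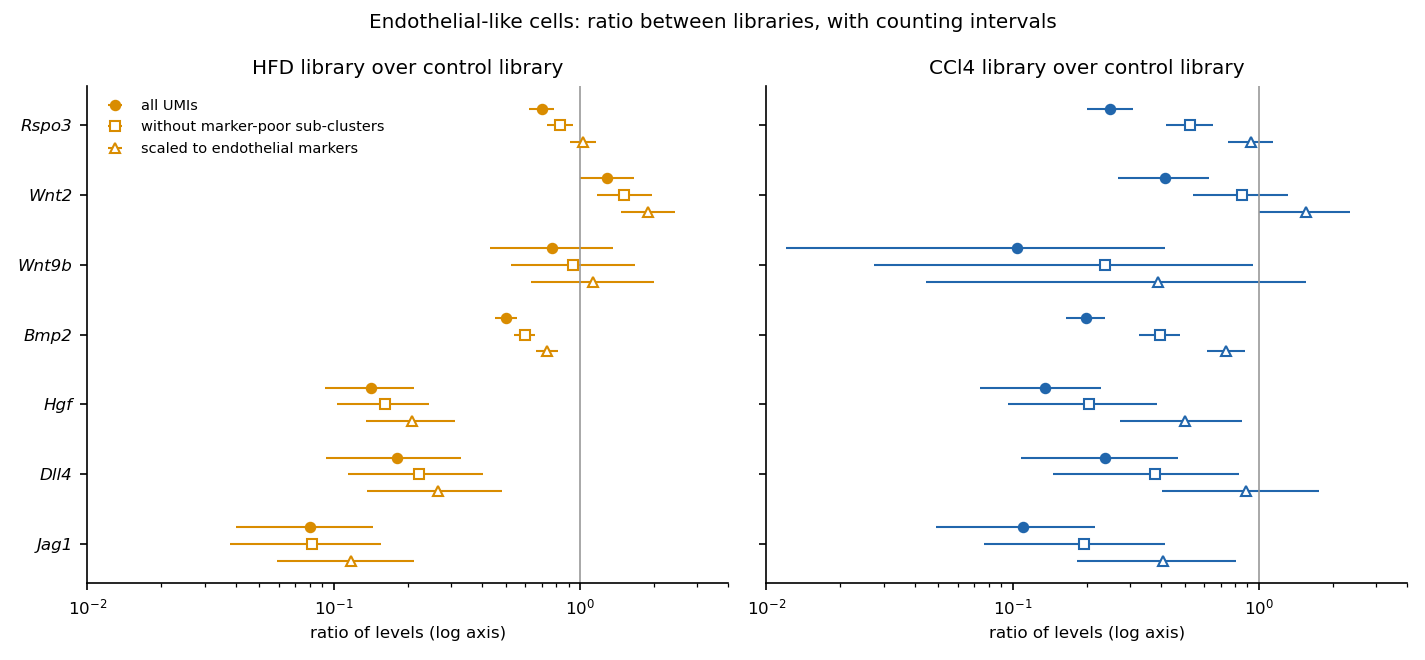
Ratio of CPM in endothelial cell-like cells (log axis) of HFD over control and of CCl4 over control for the 7 members, with circles for all UMIs, squares without the marker-poor sub-clusters, triangles for scaling to endothelial markers and bars for counting intervals. In CCl4 Rspo3 moves from 0.25 to 0.930 with scaling to endothelial markers, while Jag1 in HFD stays far below 1.

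The other classes gave library ratios with fewer UMIs. Jag1 in cholangiocyte-like cells was at 0.491 (0.353 to 0.674) in HFD and 0.438 (0.311 to 0.608) in CCl4. Hgf in basophil-like cells was at 0.0747 (0.0153 to 0.221) and 0.277 (0.0890 to 0.659). In fibroblast or stellate cell-like cells Hgf was at 0.296 (0.142 to 0.632) and 1.19 (0.431 to 3.03), and Rspo3 at 1.59 (0.676 to 4.55) in HFD. Dll4 in plasmacytoid dendritic cell-like cells was at 2.25 (0.933 to 5.23) in HFD. Of the values just given, intervals lay below 1 for Jag1 in cholangiocyte-like and Hgf in basophil-like cells in both treated libraries. The same held for Hgf in fibroblast or stellate cell-like cells in HFD. HFD Jag1 was also below 1 in fibroblast or stellate cell-like cells, at 0.129 (0.0333 to 0.448) from 5 against 8 UMIs. In smooth muscle cell-like cells it was at 0.195 (0.0233 to 0.726) from 2 against 90 UMIs. Scaled to the markers of each class, Jag1 in cholangiocyte-like cells was at 0.828 and 0.863, Hgf in basophil-like cells at 0.288 and 1.47, and Hgf in fibroblast or stellate cell-like cells at 0.959 in HFD. The last was at 0.770 without the highest cell and at 1.40 (0.330 to 12.6) without the highest doublet scores. This class also differed in make-up, since the 3 sub-clusters with the most mesothelial markers held 4, 1 and 2 control cells but 18, 35 and 38 HFD cells, with 0, 0 and 1 Hgf UMI over the libraries.

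Within the endothelial class, 11 sub-clusters divided the members further. The sub-cluster led by Cyp1b1, Fmo2 and Vwf, with 28 control and 4 HFD cells, had Rspo3 at 3085 CPM and in 100% of its cells. Its summed level of 8 large-vessel genes was 3064 CPM, with Gja5 and Sema3g at 0, and that of 9 sinusoidal genes was 1689, with Stab2 at 0. Against the other 128 control endothelial cell-like cells, the 28 held Rspo3 at 3116 against 296 CPM, for a ratio of 10.5 (8.81 to 12.6), but the sub-cluster is described here because its Rspo3 is the highest. Of the other 6 members, Wnt9b was 4.69-fold (2.00 to 11.0) and Wnt2 1.98-fold (1.25 to 3.08) higher in it, whereas Bmp2 was lower at 200 against 1560 CPM, for a ratio of 0.128 (0.0831 to 0.189). Dll4 was seen there with 1 UMI against 56 elsewhere, and Jag1 was at 1.51 (0.939 to 2.35).

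The opposite pattern was seen in the sub-cluster led by the acute phase genes Saa2, Lcn2 and Saa1, which held 69 control cells and none from the treated libraries. There Bmp2 was at 2112 CPM, Hgf at 178 and Dll4 at 110, while Rspo3 was at 4.24. Its sinusoidal sum was 9832 CPM and its large-vessel sum 1251. Endothelial markers summed to 14570 CPM in it, and hepatocyte markers to 25280, against 14250 in all control cells of the class. Msr1, a portal landmark used below, was also among its 10 leading genes. The sub-cluster with hepatic stellate genes among its leaders (Dcn, Lum, Lrat, Reln and Colec11; 12, 17 and 2 cells) had Hgf at 550 CPM and Bmp2 at 1589, and its stellate gene sum was 5488 CPM. Together with the leading genes, this shows endothelial and stellate transcripts under the same barcodes, and whether these were doublets was not tested.

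**Figure D3:**
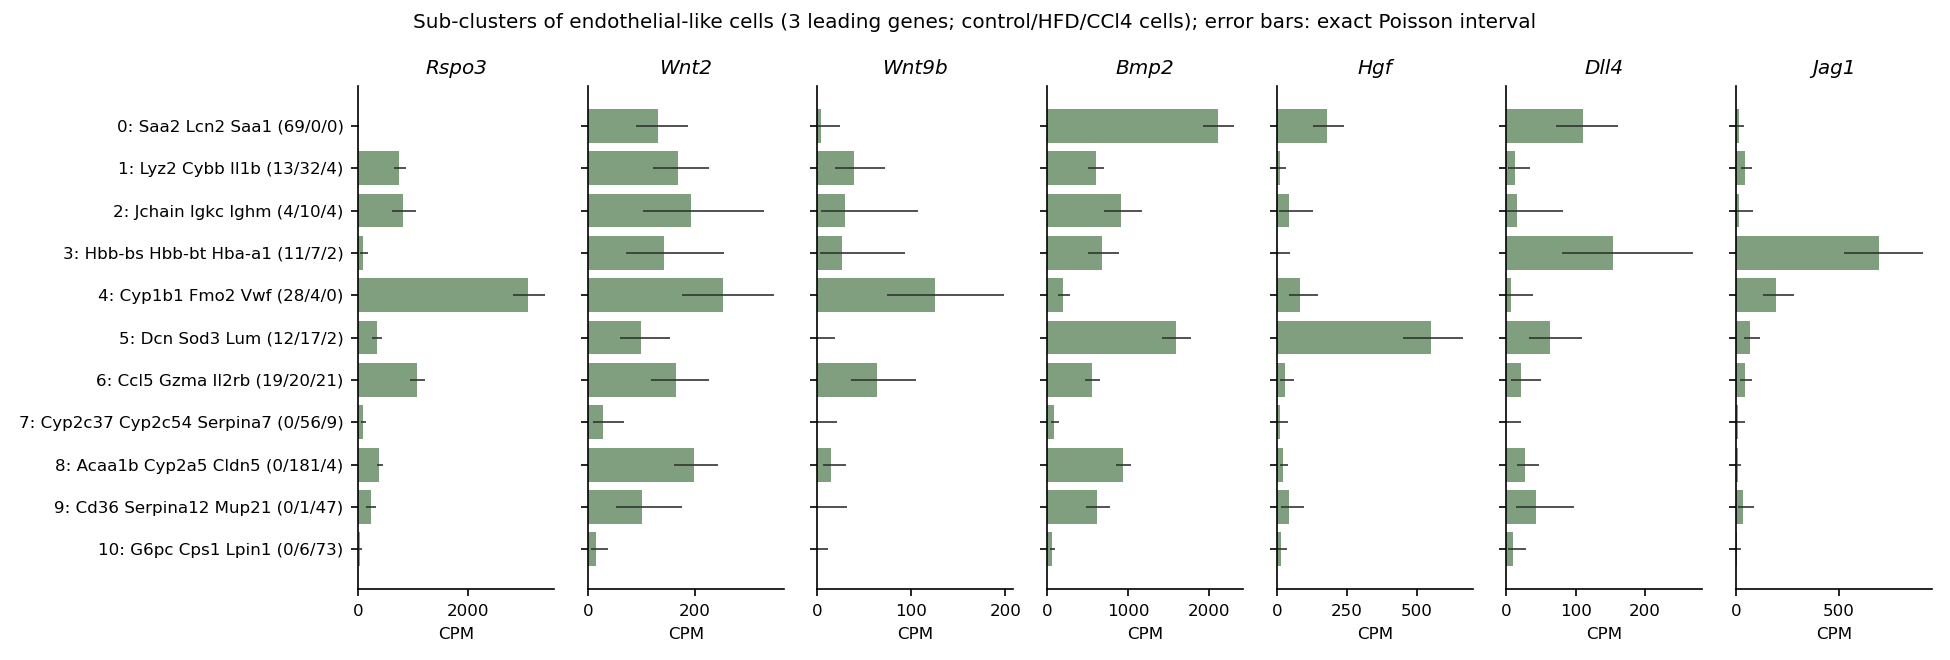
CPM of each member in the 11 endothelial sub-clusters, named by number, with bars for summed UMIs and error bars for the exact Poisson interval. Rspo3 and Wnt9b peak in sub-cluster 4, Bmp2 in sub-cluster 0, Hgf in sub-cluster 5 and Jag1 in sub-cluster 3, where 34 of 54 UMIs lie in 1 cell.

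The sub-clusters followed the libraries. Of the 334 HFD cells, 181 lay in sub-cluster 8, which held 4 cells of the CCl4 library and none of the control. Of the 166 CCl4 cells, 47 lay in sub-cluster 9 and 73 in sub-cluster 10, where control cells were absent. Sub-cluster 8, in part led by hepatocyte genes such as Acaa1b and Cyp2a5, had hepatocyte markers at 70790 and endothelial markers at 9784 CPM. Its sinusoidal sum was 6467 CPM, with Bmp2 at 942 and Rspo3 at 389. Sub-cluster 9, in part led by hepatocyte genes such as Ttr and Hamp2, had endothelial markers at 6401 CPM, with Bmp2 at 614 and Rspo3 at 227. Sub-cluster 10, led by the hepatocyte genes G6pc and Cps1 and with endothelial markers at 797.5 CPM, had Bmp2 at 66.7 and Rspo3 at 38.1 CPM. With 1 library per condition, a sub-cluster of 1 library and a cell state cannot be told apart.

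Mesenchymal cells, which were divided into 8 sub-clusters over the fibroblast or stellate and smooth muscle classes, held members in some of them. A sub-cluster of 20 cells with a stellate gene sum of 8261 CPM had Rspo3 at 638 CPM (38 UMIs, 70.0% of cells) and Hgf at 655 CPM (39 UMIs, 75.0% of cells). A sub-cluster of 25 cells, led by Rgs5 and Higd1b and with no smooth muscle marker among its 10 leading genes, had Jag1 at 422 CPM. Another of 27 cells, with the smooth muscle markers Cnn1, Myh11 and Acta2 among its leaders, had Jag1 at 267 CPM. The sub-cluster with the highest portal fibroblast sum, 4167 CPM, had Rspo3 at 45.0 and Jag1 at 70.7 CPM. The mesenchymal class also held mesothelial markers, at 3297, 1899 and 2869 CPM in 3 sub-clusters.

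The position of the members along the sinusoid was read from landmark genes. Cells were divided by whether central landmarks (Kit, Thbd, Cdh13 and Fabp4) or portal landmarks (Efnb2, Ltbp4, Msr1, Ntn4 and Adgrg6) had more UMIs per list size, which gave 119 against 34 control cells, 251 against 45 HFD cells and 82 against 32 CCl4 cells. Of 656 cells, 93 could not be placed (3, 38 and 52 by library). Within 1 UMI of the cut lay 157 (7, 80 and 70), a count that can include cells not placed. The division thus marks ranges and not types, and is least sure in HFD and CCl4.

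Rspo3 lay on the central side, with 585 against 2 UMIs in the control library (988 against 14.0 CPM), 552 against 5 in HFD and 107 against 0 in CCl4. The ratios were 70.5 (19.4 to 583) and 17.4 (7.41 to 53.8) in the control and HFD libraries. Wnt2 was also higher on the central side, 7.79-fold (2.59 to 38.4), 5.17-fold (2.17 to 16.1) and 4.19-fold (1.29 to 21.5). Wnt9b had 26 central and 0 portal UMIs in the control, 27 and 0 in HFD, and 1 and 1 in CCl4.

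Dll4 and Jag1 were higher on the portal side in the control library, with central to portal ratios of 0.268 (0.154 to 0.468) and 0.328 (0.222 to 0.489). For Jag1 this was 64 central against 47 portal UMIs, and 34 of the 111 lay in 1 cell. The Jag1 ratio without that cell was not computed, so its portal side may rest on 1 cell. Jag1 was also seen in 27 of 55 control cells with Rspo3, a gene of the central side, against 12 of 101 others. In HFD Dll4 was at 0.210 (0.0639 to 0.735), whereas the intervals of Jag1 in HFD and of both genes in CCl4 held 1. Bmp2 was lower on the central side in the control, at 1211 against 1739 CPM (0.697, 0.602 to 0.808), and its ratios of 1.09 (0.865 to 1.40) and 1.51 (0.979 to 2.39) in HFD and CCl4 had intervals that held 1. The control ratio of Hgf was 1.28 (0.820 to 2.06), also with an interval that held 1. The portal landmark Msr1 was among the leading genes of the control sub-cluster with the highest Bmp2. The part of that sub-cluster in the control ratios was not tested.

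**Figure D4:**
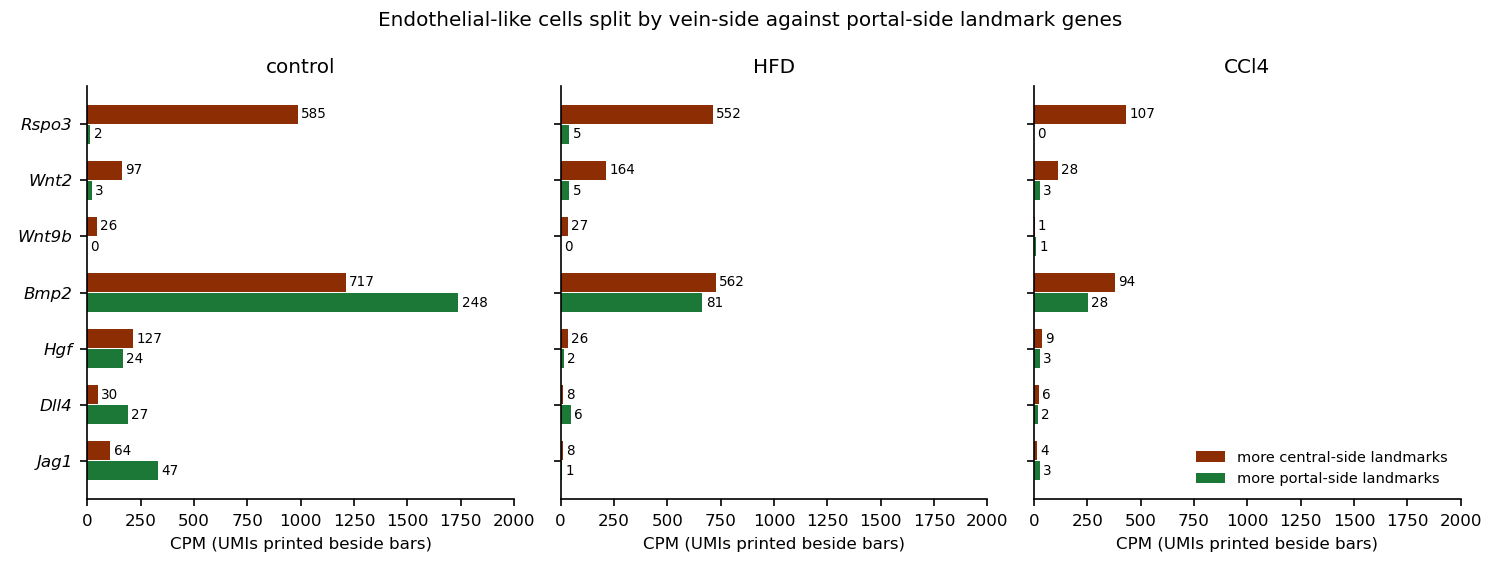
CPM of the 7 members in endothelial cell-like cells with more central or more portal landmark UMIs, by library, with the UMI counts printed at the bars. Rspo3 shows 585 against 2 UMIs in the control library, and Dll4 and Jag1 stand higher on the portal side there. Of the 111 control Jag1 UMIs, 34 lay in 1 cell, so the portal side of Jag1 may rest on that cell.

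Members also met in the same cells. At least 1 member was detected in 152 of 156 control endothelial cell-like cells (97.4%), 277 of 334 in HFD (82.9%) and 101 of 166 in CCl4 (60.8%). These counts include the 62 HFD and 82 CCl4 cells of the 2 sub-clusters led by hepatocyte genes, and the part of those cells was not tested. In the control, Wnt2 was seen in 61.8% of the 55 Rspo3-positive cells and 26.7% of the 101 others, and Wnt9b in 29.1% against 1.98%. Jag1 was seen in 49.1% against 11.9%, although it was higher on the portal side by summed UMIs. Bmp2 went the other way, at 61.8% against 92.1%, as did Hgf at 23.6% against 35.6% and Dll4 at 16.4% against 25.7%. The Rspo3-positive control cells were deeper, with a median of 5656 against 3350 UMIs. In HFD the medians were 2924 against 2448, and in CCl4 2560 against 2776. Deeper cells and doublets, which were in effect kept, can raise co-detection, and their part was not tested. In HFD, Wnt2 was seen in 54.0% against 28.6% and Bmp2 in 53.0% against 69.7% of Rspo3-positive and other cells, and in CCl4 Wnt2 in 43.3% against 8.09% and Bmp2 in 53.3% against 42.7%.

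Other ligands of these families were examined in the same classes. None of the other 20 Wnt and R-spondin genes reached 10 UMIs in endothelial cell-like cells. Wnt4 was found in cholangiocyte-like cells, at 203, 179 and 87.1 CPM, and Rspo1 in fibroblast or stellate cell-like cells, at 153 and 118 CPM in the control and HFD libraries. The 5 other BMP ligands with enough UMIs in endothelial cell-like cells were all at least 2-fold lower in both treated libraries, with median ratios of 0.242 in HFD and 0.140 in CCl4. Of all genes in these cells 19.0% and 38.1% were that much lower, and the endothelial markers had medians of 0.697 and 0.267. Fibroblast or stellate cell markers under the same barcodes also fell, at 2072, 651 and 240 CPM, and their part in the BMP ligand values was not tested. Bmp6, the partner of Bmp2 in iron sensing, was at 117, 22.9 and 16.5 CPM, Bmp4 at 78.3, 18.9 and 7.33, Bmp5 at 52.6, 8.98 and 11.0, and Gdf2, a circulating ligand of vascular receptors, at 40.5, 12.0 and 7.33. Dll1, a further Notch ligand, was at 0.205 and 0.226 of its control level in these cells.

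Receivers of the signals were read in hepatocyte-like cells. Of the members themselves, Rspo3 and Wnt2 were at least 2-fold higher in HFD, 2 of 5 with enough UMIs, against 9.79% of the 13774 genes compared, and 0 were lower, against 10.1%. The Rspo3 ratio of 2.13 (0.945 to 4.93) had an interval that held 1, and Wnt2 passed the minimum of UMIs through its 11 HFD UMIs, against 3 in the control. In CCl4, 1 of 3, Rspo3, was at least 2-fold lower, against 10.4% of 14018 genes, and 0 were higher, against 12.7%. The median ratio of all genes was 1.02 in HFD and 1.04 in CCl4. These cells came from separate clusters in each library, with 3428 and 1512 control cells in clusters 1 and 4, 5197 and 1172 HFD cells in clusters 8 and 32, and 2877 and 4023 CCl4 cells in clusters 29 and 35. Rspo3 in T cell-like cells was at 0.804, 2.15 and 1.83 CPM, above its hepatocyte-like level in every library, and Wnt2 in T cell-like cells was at 0.201, 0.195 and 0.458 CPM from 1, 1 and 2 UMIs. Nothing is read from these counts.

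Wnt targets of pericentral hepatocytes were higher in HFD and lower in CCl4. Of 11 measured in HFD, 7 were at least 2-fold higher and none lower, against 9.79% and 10.1% of all genes, with a median ratio of 2.34. Of 10 measured in CCl4, 7 were at least 2-fold lower and none higher, against 10.4% and 12.7% of all genes, with a median of 0.202. Cyp2e1, the cytochrome that activates CCl4, was at 662, 2066 and 281 CPM, with ratios of 3.12 (3.06 to 3.17) and 0.424 (0.412 to 0.437). Cyp1a2 was at 126, 449 and 18.6 CPM, and Oat, an enzyme of ornithine breakdown, at 525, 799 and 73.2 CPM. Glul, glutamine synthetase of the innermost pericentral cells, was at 204, 344 and 43.2 CPM, with ratios of 1.69 (1.62 to 1.75) and 0.212 (0.197 to 0.227). Slc1a2, a glutamate transporter, followed at 21.8, 48.8 and 2.26 CPM, and Axin2, a direct feedback target, at 0.803, 3.26 and 0.528 CPM, with ratios of 4.07 (2.44 to 6.99) and 0.659 (0.288 to 1.42).

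In endothelial cell-like cells, where these transcripts do not belong, 5 of the 8 measured targets were at least 2-fold higher and 1 lower in HFD, with a median of 3.98, and Cyp2e1 was at 188, 1586 and 229 CPM. In CCl4 3 of 6 were at least 2-fold lower there and 1 was higher, with a median of 0.755. Of all genes in endothelial cell-like cells, 12.2% were higher and 19.0% lower by that fold in HFD, and 12.9% and 38.1% in CCl4. How far transcripts of other cells entered the hepatocyte values was not tested.

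**Figure D5:**
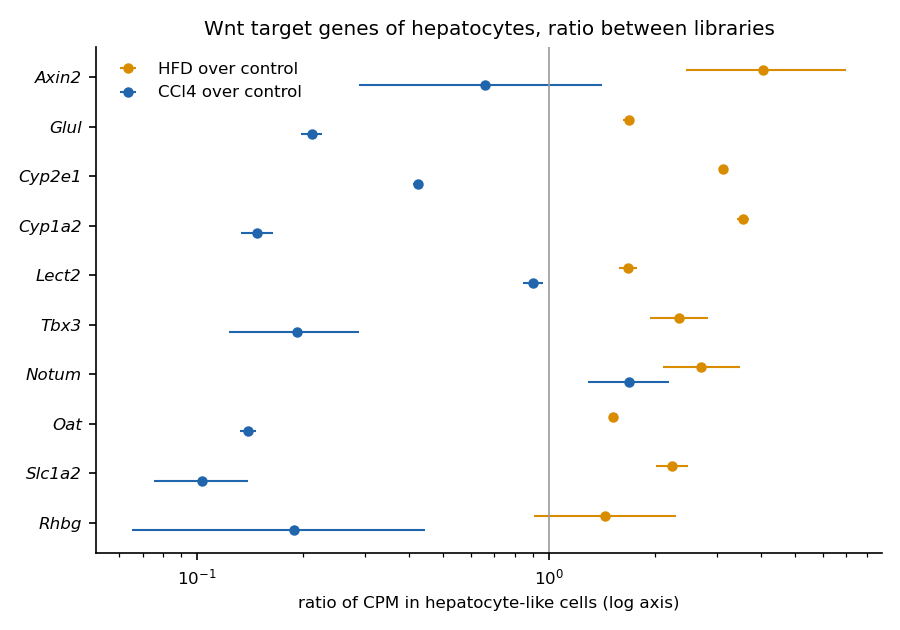
Ratio of CPM in hepatocyte-like cells (log axis) of HFD over control and of CCl4 over control for 10 Wnt target genes, with counting intervals as bars. Cyp2e1 lies at 3.12 in HFD and 0.424 in CCl4, and Glul at 1.69 and 0.212.

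Wnt receptors and their regulators were spread over both directions. Of 12 measured in hepatocyte-like cells in HFD, 6 were at least 2-fold higher and none lower (median 1.87), and of 13 in CCl4, 4 were higher and 2 lower (median 1.41). Of all genes in these cells, 9.79% were higher and 10.1% lower by that fold in HFD, and 12.7% and 10.4% in CCl4. Lgr4, the more abundant R-spondin receptor of the liver, was at 46.3, 37.2 and 59.2 CPM, and the co-receptor Lrp6 at 44.0, 27.6 and 40.0. Lgr5, the pericentral R-spondin receptor, was counted 35, 83 and 2 times, at 1.28, 4.84 and 0.0961 CPM, with ratios of 3.79 (2.52 to 5.79) and 0.0753 (0.00877 to 0.293). Rnf43, itself a Wnt target, was 7.47-fold and 3.48-fold the control level. Its CCl4 value went against the median of 0.202 of the Wnt targets listed above.

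BMP and HGF receivers were read in the same cells. Of the 8 BMP receptors and co-receptors measured in hepatocyte-like cells, none passed 2-fold in HFD (median 1.05), and 1 was higher and 2 lower in CCl4 (median 1.40). Of 8 BMP targets, 4 were at least 2-fold higher and 1 lower in HFD (median 2.13) and 1 lower in CCl4 (median 0.80). For each list of this paragraph, the shares of all genes past that fold were 9.79% higher and 10.1% lower in HFD, and 12.7% and 10.4% in CCl4. Hamp, which encodes hepcidin, was at 7589, 4656 and 6876 CPM, Id2 at 677, 387 and 370, Id3 at 202, 101 and 140, and Id1 at 9.12, 32.3 and 12.3. Hamp, Id2 and Id3 were thus lower in HFD than in the control, against the list median of 2.13. Most of the BMP targets at least 2-fold higher in HFD are not named here. Met, the receptor of Hgf, was at 21.1, 23.3 and 25.6 CPM, Hpn, a protease that activates Hgf, at 136, 123 and 126, Hgfac, the Hgf activator, at 37.2, 41.2 and 75.9, and Spint2, an inhibitor of these proteases, at 107, 79.8 and 40.8. Of these 4 Hgf genes none passed 2-fold in HFD, and in CCl4 Hgfac was higher at 2.04 (1.89 to 2.21) and Spint2 lower at 0.382 (0.353 to 0.412).

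Notch receptors and targets were read in 3 classes. Endothelial Notch1 was at 436, 182 and 104 CPM, with ratios of 0.419 and 0.24, and 2 of 3 receptors were at least 2-fold lower in each treated library, against the same 19.0% and 38.1% of all genes. The endothelial marker medians of 0.697 and 0.267 apply here as well. In cholangiocyte-like cells, whose formation is known to need Notch signals, Sox9 was at 972, 669 and 751 CPM and Hes1 at 908, 1045 and 835, and none of 3 targets passed 2-fold in HFD. In hepatocyte-like cells all 3 measured targets were at least 2-fold lower in HFD (median 0.130), against 10.1% of all genes, with Hes1 at 114, 19.5 and 102 CPM, Sox9 at 87.2, 11.3 and 59.6 and Spp1, osteopontin, at 157, 17.5 and 70.5. In T cell-like cells Sox9, which does not belong there, was at 12.7, 4.88 and 18.1 CPM, and Spp1 was at 51.0, 11.9 and 40.1. Both were also lowest in HFD there, and the part of free RNA in the hepatocyte-like values was not tested.

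Genes with a profile like that of a member were sought over 41 combinations of class and library with at least 20 cells, by Pearson's r of log2(CPM + 5) among 15616 genes. These profiles share libraries, depth and free RNA, so r is a description. Rspo3 was most like Ramp2 (0.971), Aqp1 (0.964) and Plvap (0.959). Wnt2 was most like Jam2 (0.971), Stab2 (0.964) and Fgd5 (0.957), and Wnt9b like Exoc3l2 (0.991), Nova2 (0.980) and Shank3 (0.978). Bmp2 was most like Hoxb5 (0.961), Mecom (0.959) and Cdh13 (0.955), and Dll4 like Cdh5 (0.888), Fam171a2 (0.829) and Gpr4 (0.826). Jag1 stood nearest to Eml1 (0.949), Bcam (0.943) and Mfge8 (0.941). Hgf stood nearest to Gm43489 (0.882), which overlaps it on the same strand, Csf1 (0.864) and Npl (0.861). On log2(CPM + 1), 1 to 3 of the 3 genes stayed the same for each member.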

How the data were processed

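The deposited values were UMI counts of each gene under each barcode, not normalized by the authors, and came from Cell Ranger 7.2.0 per the file headers. Seurat and GRCm39 also stand in the submitters' processing notes, whereas mm10 is named in the study's methods. The annotation release and the calling of cells are not given in the sources used here. Of the 55357 identifiers, 52081 were found in GENCODE M21 (GRCm38), used for positions.

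Members, gene lists and markers were chosen with earlier results of these data known. Of 98 pathway genes, 97 were matched (Hfe2 was not, but its current symbol Hjv was). Barcodes with over 30% mitochondrial UMIs were left out (38, 1 and 0). None had under 500 UMIs or 200 genes. Scrublet marked 6 of 36990 barcodes and so has not worked, and doublets were in effect kept. Free RNA was not removed. Cells were clustered together (2000 variable genes without members and pathway genes, 30 components, 15 neighbours, Leiden resolution 1.0) into 38 clusters, of which 35 were named from markers by a rule set after the clusters had been seen.

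UMIs were added up over the cells of a class in each library. Exact Poisson intervals were given to CPM, Clopper-Pearson intervals to shares and exact conditional intervals to ratios (95%). A count of 0 allows 3 counts. Shares were also thinned to 1000 UMIs per cell. Fold calls needed at least 10 UMIs of a gene in the cells compared. Named genes were the members, in each pathway list up to 4 genes with the most UMIs in the class described and up to 3 past 2-fold with an interval off 1, and 3 genes of like profile per member. A few further genes were named after their values were seen. Sub-clusters left out, scaling to class markers and leaving out the highest cell were alternatives chosen after seeing the data. The ratio intervals, the 2-fold rule and the thinning were tested on simulated counts, whereas the clustering, the naming and the other steps were not. Python 3.11.15, scanpy 1.11.5, leidenalg 0.10.2, numpy 2.4.6, scipy 1.17.1, pandas 2.3.3 and matplotlib 3.10.9 were used.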

Additional observations from a re-analysis of the deposited data

How the results depend on the processing

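Of 646 values recomputed under alternatives, 551 stayed within the counting interval or within 1.5 times the main count, 90 moved and 5 changed direction from a main value whose interval lay off 1. Of 56 ratios, 49 kept 1 direction under all alternatives run. Besides those 5, direction changed from main values whose intervals held 1, for Rspo3 in the HFD fibroblast or stellate class and for endothelial Wnt9b in HFD, at 1.221 without the highest doublet scores and 1.126 scaled to class markers. No paired analysis was possible because each condition is 1 library. In what follows, class ratios are over all other cells, library ratios are over the control, HFD before CCl4, and the cause of each move was not tested unless named.

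With each library clustered alone, control class ratios were 379.8 for endothelial Rspo3, 129.6 Bmp2, 10.05 Hgf, 75.45 Dll4 and 15.58 Jag1, and 26.93 for Rspo3 and 72.24 for Hgf in fibroblast or stellate cell-like cells. Endothelial library ratios were then 0.8723 and 0.3142 for Rspo3, 0.677 and 0.2691 for Bmp2 and 0.3566 and 0.3655 for Hgf, and HFD ratios in the fibroblast or stellate class 0.3206 for Rspo3, a change of direction, and 0.0828 for Hgf. Without the highest doublet scores, control class ratios were 497.5 for Bmp2 and 59.05 for Hgf in endothelial, 163.1 for Hgf in basophil-like and 4.87 for Bmp2 in smooth muscle cell-like cells, the CCl4 ratio of Rspo3 was 0.186, Bmp2 stood at 0.4158 and 0.1505, and Hgf in the HFD fibroblast or stellate class turned to 1.404. The HFD ratio was 0.8028 for Rspo3 at a minimum of 2000 UMIs and 0.5567 for Bmp2 with 4000 variable genes, and the CCl4 ratio of Bmp2 was 0.2378 outside mitochondrial and the 20 most abundant genes.

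Without sub-clusters led by genes of myeloid, B, red blood, stellate or NK cells, endothelial class ratios were 131.3 for HFD Rspo3, 24.23 and 8.416 for control and HFD Hgf and 11.59 for control Jag1. Library ratios were 0.2955 and 0.1149 for Rspo3, 0.9495, a change of direction, and 0.2371 for Wnt2, 0 for CCl4 Wnt9b and 0.151 for CCl4 Bmp2. Without marker-poor sub-clusters, CCl4 class ratios were 820 for Rspo3 and 262.2 for Bmp2, and library ratios 0.8306 and 0.5255 for Rspo3, 0.8552 for CCl4 Wnt2 and 0.5969 and 0.397 for Bmp2. Scaled to class markers, library ratios were 1.029 (direction changed) and 0.93 for Rspo3, 1.89 and 1.551 (changed) for Wnt2, 0.7367 and 0.7384 for Bmp2, and in CCl4 0.5021 for Hgf, 0.8868 for Dll4 and 0.4099 for Jag1. They were 0.8281 and 0.8627 for cholangiocyte-like Jag1, 0.2884 and 1.471 (changed) for basophil-like Hgf, and in the HFD fibroblast or stellate class 5.146 for Rspo3 and 0.959 for Hgf. Without the highest cell, control class ratios were 421.8 for Bmp2 and 16.17 for Jag1 in endothelial and 3.794 for Bmp2 in smooth muscle cell-like cells, and the HFD ratio of Hgf in the fibroblast or stellate class was 0.7698.

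Counts of genes past a fold followed the number of genes tested. With at least 30 UMIs, 468 genes passed for endothelial cells over others in CCl4, 827 for fibroblast or stellate cells in HFD, 865 higher and 1172 lower in HFD and 832 and 2305 in CCl4 endothelial cells, and 912 lower in HFD hepatocytes. With no minimum these were 1488, 2703, 3487 and 4616, 2759 and 7317, and 4160, with 2330 for endothelial cells over others in HFD and, in hepatocytes, 3708 higher in HFD and 4599 higher and 4124 lower in CCl4.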
